A study of Rattus norvegicus with 7 samples.

Results

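The transcripts of 7 genes grouped as compact myelin proteins, Mbp, Mobp, Cnp, Mal, Pllp, Pmp22 and Plp2, were followed across 7 RNA-seq libraries of differentiating rat oligodendrocyte progenitor cells. The members were taken by gene symbol, with no rule on their values, but the list was chosen with earlier results of these data known. They are 7 of the 32852 genes in the normalised table, and all 7 were among the 18225 genes tested, whose mean normalised count was 10 or more. The study compared 4 libraries transfected with a control siRNA with 3 libraries transfected with an siRNA that targets RNLTR12-int, a retrovirus-derived repeat sequence of rats. Both groups were wild-type (WT) cells from the brain of rats at postnatal day 7, transfected with Lipofectamine RNAiMAX when the medium was changed to differentiating medium, and kept in it for 4 to 5 days. The labels do not say which library was kept for 4 and which for 5 days. The level of RNLTR12-int was not analysed here, so the knockdown itself was not checked. The labels call the libraries biological replicates but tie none to an animal or culture, so p-values reflect how much these samples vary, and that variation can be technical. Values per library are given in the order of the replicate numbers.

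Myelin is made when an oligodendrocyte wraps its membrane around an axon and squeezes out most of the cytoplasm between the layers. Mbp, myelin basic protein, holds the cytoplasmic faces of the layers together, while Cnp, a phosphodiesterase bound to the cytoskeleton, keeps cytoplasmic channels open and is found mainly in the uncompacted parts of the sheath. Mal, Pllp and Plp2 belong to the MARVEL family of small membrane-spanning proteins, and Pmp22 is best known as a compact myelin protein of Schwann cells in peripheral nerve. Plp2 is named for its resemblance to proteolipid proteins and is expressed in many tissues, so the group joins genes of different cell-type range.

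The libraries held 22523873 to 61803693 reads, and the values are normalised counts, that is, reads divided by 1 size factor per library. The oligodendrocyte lineage markers Olig1, Olig2, Sox10 and Nkx2-2 were present in every library, with a summed normalised count of 47980 to 107959 in the controls and 50648 to 107433 in the siRNLTR12-int libraries. Markers of other cells were present as well. The summed count of 10 astrocyte markers was 491118 to 601078 in 3 libraries (controls 1 and 2 and siRNLTR12-int replicate 1) and 116575 to 139877 in the other 4. Sox10, a transcription factor of the whole lineage, had 8318 and 8037 normalised counts in control replicate 1 and siRNLTR12-int replicate 1 and 27505 to 38713 in the other 5 libraries. Each set defined by astrocyte markers holds libraries of both siRNA groups, so results are also given within the 4 low and within the 3 high libraries.

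Mbp, Mobp, Cnp and Mal had their 3 siRNLTR12-int values below their 4 control values, whereas Pllp, Pmp22 and Plp2 overlapped between the groups. Mbp and Mobp fell in the authors' deposited table, with log2 fold changes of -2.93 and -3.77 and a DESeq2 adjusted p of 0.00236 for both. With DESeq2 on the recovered reads neither passed without siRNLTR12-int replicate 2 (log2 difference -2.82 for Mbp, adjusted p = 0.121, and -3.51 for Mobp, adjusted p = 0.122) or without siRNLTR12-int replicate 3 (-2.72, adjusted p = 0.145, and -3.45, adjusted p = 0.134). In the limma test used here, on log2(normalised count + 1), 0 of the 7 members and 0% of all tested genes passed an adjusted p of 0.05. At an unadjusted p under 0.05, 4 members were lower and 1 was higher, beside 2.98% and 3.33% of all tested genes. The 4 members that lay below every control stand beside 3.59% of tested genes with that order, and 0 members lay above every control, an order found in 4.09% of tested genes. The authors' deposited table called 2 of the 7 members lower, beside 0.368% of its genes. The median log2 difference of the 7 members was -1.18, and that of all tested genes was 0.01. In these bulk libraries, fewer oligodendrocytes and less RNA per oligodendrocyte cannot be told apart.

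**Figure D1:**
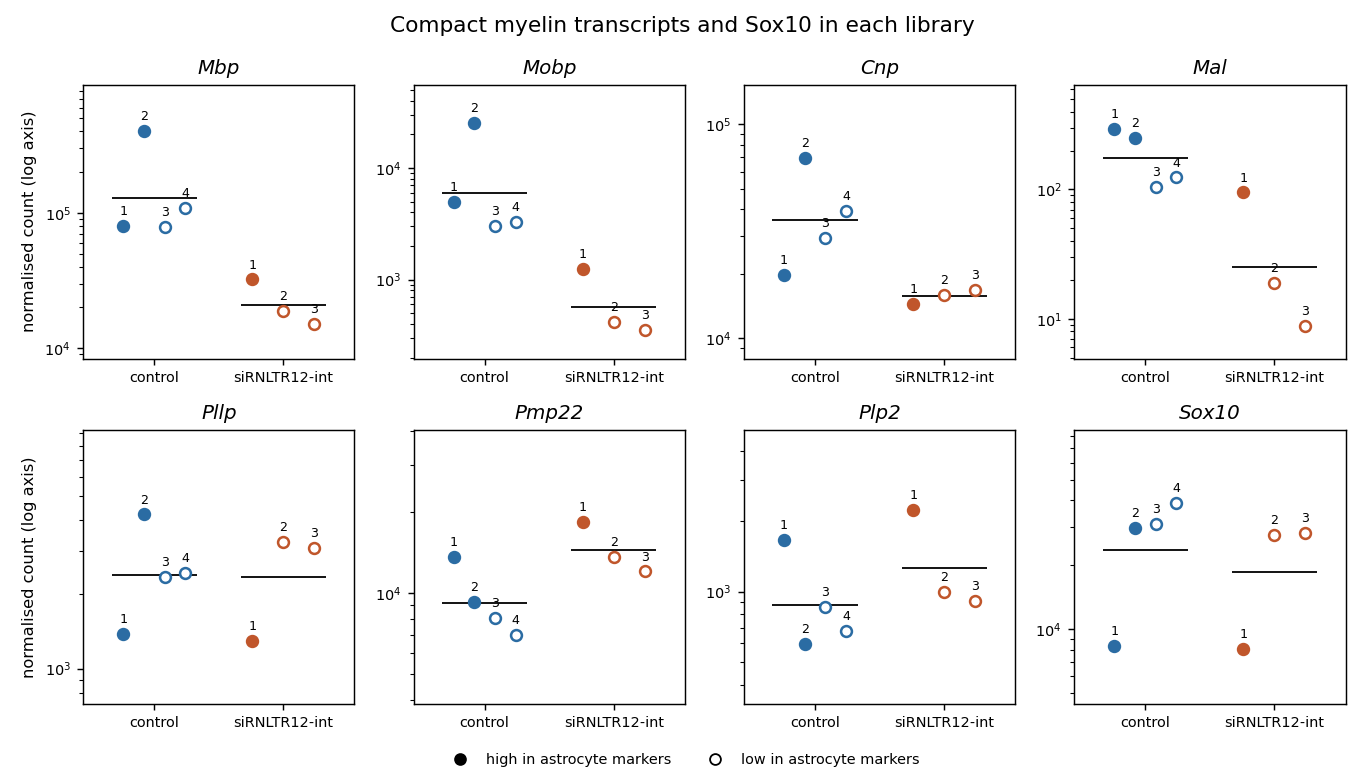
Normalised count (log axis) of each of the 7 members and Sox10 in the 4 control and 3 siRNLTR12-int libraries, 1 point per library, labelled with its replicate number, filled where astrocyte markers are high and open where they are low, with the group's geometric mean as a line. The siRNLTR12-int points lie below every control point for Mbp, Mobp, Cnp and Mal, and control replicate 2 is the highest point for Mbp, Mobp, Cnp and Pllp.

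Mbp (ENSRNOG00000016516) had 80170, 401821, 78977 and 109426 normalised counts in the controls. With siRNLTR12-int it had 32168, 18730 and 15076. The groups did not overlap, and the lowest control was 2.46 times the highest siRNLTR12-int library. Control replicate 2 stood apart, at 5.01 times the median of the other controls. The means were 167598 ± 156782 (SD, n = 4) and 21992 ± 9001 (SD, n = 3), and without control replicate 2 the control mean was 89524 ± 17246 (SD, n = 3). On the geometric scale Mbp was 6.19-fold lower with siRNLTR12-int, a log2 difference of -2.63 (SE 0.60, limma adjusted p = 0.647). Without control replicate 2 the difference was -2.08 (SE 0.31, limma adjusted p = 0.434). As a share of all reads in a library, Mbp was 0.202%, 0.896%, 0.209% and 0.274% in the controls and 0.0782%, 0.0468% and 0.0388% in the siRNLTR12-int libraries.

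Mobp (ENSRNOG00000018700), a small basic protein that like Mbp lies at the cytoplasmic faces of compact myelin, had the largest fold difference of the 7 members over all 7 libraries (in the 4 libraries with low astrocyte markers, Mal had -3.04 and Mobp -3.03 on the log2 scale with limma). Its normalised counts were 4965, 25262, 3040 and 3280.2 in the controls, and 1243, 419.0 and 353.0 with siRNLTR12-int. Every control lay above every siRNLTR12-int library, with a factor of 2.44 between the nearest 2 libraries. Control replicate 2 was again the highest, at 7.70 times the median of the other controls. The log2 difference was -3.38 (SE 0.81, limma adjusted p = 0.647), a 10.4-fold lower geometric mean, and -2.69 (SE 0.50, limma adjusted p = 0.592) without control replicate 2.

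Cnp (ENSRNOG00000017496) had a smaller difference. Its normalised counts were 19819, 69376, 29506 and 39414 in the controls. The siRNLTR12-int libraries lay close together at 14460, 15917 and 16864. The groups did not overlap, but the lowest control, replicate 1, was only 1.18 times the highest siRNLTR12-int library. The log2 difference was -1.18 (SE 0.39, limma adjusted p = 0.701), a 2.26-fold lower geometric mean. The authors' deposited table gave -1.33 with a DESeq2 adjusted p of 0.105.

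Mal (ENSRNOG00000015445), a MARVEL protein of lipid-rich membrane domains that is made late in oligodendrocyte maturation, had the fewest reads of the members. It was covered by 306, 345, 122 and 70 reads in the controls and by 104, 15 and 11 reads with siRNLTR12-int. The 95% exact Poisson intervals of the last 2 counts were 8.40 to 24.7 and 5.49 to 19.7 reads, which cover counting error only. Its normalised counts were 292.8, 250.4, 105.2 and 124.2 in the controls and 95.01, 19.0 and 8.87 in the siRNLTR12-int libraries. SiRNLTR12-int replicate 1 lay just below the lowest control, by a factor of 1.11, and the other two siRNLTR12-int libraries lay well below. The log2 difference was -2.73 (SE 0.78, limma adjusted p = 0.662), and it fell short of the threshold in the authors' deposited table too (log2 fold change -2.24, adjusted p = 0.177 from DESeq2).

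Pllp (ENSRNOG00000016558), plasmolipin, a MARVEL protein of myelin and of epithelial membranes, did not follow this order. It had 1379, 4222, 2357 and 2443 normalised counts in the controls and 1298, 3256 and 3100.4 in the siRNLTR12-int libraries. The groups overlapped almost fully, and the means were 2600.2 ± 1184 (SD, n = 4) and 2551 ± 1088 (SD, n = 3). The log2 difference was -0.03 (SE 0.45, limma adjusted p = 0.998). Its sign turned when 1 library was left out, to 0.24 without control replicate 2 and 0.40 without siRNLTR12-int replicate 1 (limma). Its lowest counts were in control replicate 1 and siRNLTR12-int replicate 1, the same libraries that were lowest in Sox10.

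Pmp22 (ENSRNOG00000003338) had the opposite direction. It had 13601, 9280.3, 8082 and 6984 normalised counts in the controls and 18376, 13682 and 12040.4 with siRNLTR12-int. The groups overlapped only through control replicate 1, which lay above siRNLTR12-int replicate 3. The geometric mean was 1.57-fold higher with siRNLTR12-int, a log2 difference of 0.65 (SE 0.25, limma adjusted p = 0.752). Plp2 (ENSRNOG00000039496) had 1664, 596.5, 862.7 and 679.5 normalised counts in the controls and 2229, 995.0 and 912.3 in the siRNLTR12-int libraries. Control replicate 1 and siRNLTR12-int replicate 1 were the highest of their groups, and the groups overlapped. The log2 difference of Plp2 was 0.53 (SE 0.44, limma adjusted p = 0.940). The libraries highest in Pmp22 and Plp2 within each group, control replicate 1 and siRNLTR12-int replicate 1, were also the highest of their groups in summed astrocyte markers (543994 and 601078) and microglia markers (16349 and 18568). Control replicate 2, with an astrocyte sum of 491118, did not share this order. It had the lowest Plp2 of the 7 libraries (596.5) and a Pmp22 of 9280.3. A link between these counts and other cells was not tested.

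**Figure D2:**
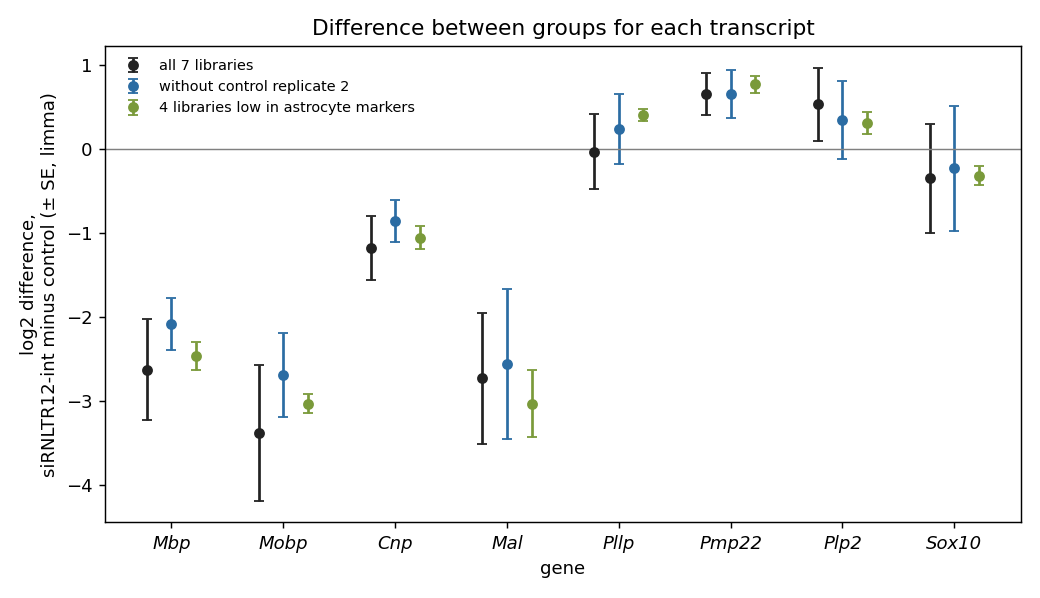
Log2 difference, siRNLTR12-int minus control, of the 7 members and Sox10 (y axis), as the limma estimate with its SE, over all 7 libraries (black), without control replicate 2 (blue) and over only the 4 libraries with low astrocyte markers (green). Mbp, Mobp, Cnp and Mal lie below 0 and Pmp22 and Plp2 above 0 in all 3 fits, while Pllp changes sign.

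The differences of Mbp, Mobp, Cnp, Mal, Pmp22 and Plp2 kept their direction within both sets of libraries defined by astrocyte markers. In the 4 low libraries, 2 per group, a separate limma fit gave log2 differences of -2.47 for Mbp (adjusted p = 0.00466), -3.03 for Mobp (adjusted p = 0.000456), -1.06 for Cnp (adjusted p = 0.0102) and -3.04 for Mal (adjusted p = 0.0107). Pmp22 was higher by 0.77 (limma adjusted p = 0.0107) and Pllp by 0.40 (limma adjusted p = 0.0258), while Plp2 gave 0.32 (limma adjusted p = 0.202). That is 4 members lower and 2 higher, beside 3.1% and 4.78% of the genes tested in those libraries. This fit was chosen after the data were seen. Its libraries were the most alike pair of each group. The chi-square of the median gene was 2.69 between controls 3 and 4 and 1.27 between siRNLTR12-int replicates 2 and 3. The other pairs within a group gave 9.20 to 20.2, a wider spread that the p-values of this fit do not measure. In the 3 high libraries, 2 controls and 1 siRNLTR12-int, the differences without a test were -2.48 for Mbp, -3.17 for Mobp, -1.36 for Cnp, -1.501 for Mal, 0.71 for Pmp22 and 1.16 for Plp2, but -0.89 for Pllp. With all 7 libraries and a block for these sets, also added later, DESeq2 on whole reads called Mbp, Mobp, Cnp and Mal lower and Pmp22 higher, beside 1.58% of genes lower and 2.42% higher. Its adjusted p was 0.00166 for Mbp, 3.63e-05 for Mobp, 0.0177 for Cnp, 6.04e-06 for Mal and 0.00121 for Pmp22. In limma, the same block was a planned setting and called 0 genes. Its limma adjusted p was 0.191 for Mbp and Pmp22, 0.190 for Mobp and Mal and 0.273 for Cnp. With astrocyte marker level as a covariate, also planned, limma called 0 genes as well.

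Within a library, the members were also compared with Mbp, which shows how the mix of the group differed. These are ratios of normalised counts not corrected for transcript length, so they are read across libraries and not as which transcript is more abundant. Cnp was 24.7%, 17.3%, 37.4% and 36.0% of the Mbp count in the controls, and 45.0%, 85.0% and 112% with siRNLTR12-int. Pmp22 was 17.0%, 2.31%, 10.2% and 6.38% of the Mbp count in the controls and 57.1%, 73.0% and 79.9% with siRNLTR12-int. Pllp was 1.72%, 1.05%, 2.98% and 2.23% in the controls and 4.04%, 17.4% and 20.6% with siRNLTR12-int. All 3 ratios, and that of Plp2 to Mbp, were higher in every siRNLTR12-int library than in every control. They share Mbp as denominator, so they are not independent. The lower Mbp count (log2 difference -2.63, limma) by itself raises each of them, while Pllp itself differed by -0.03.

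The log2 ratio to Mbp was higher with siRNLTR12-int by 1.45 for Cnp, 2.60 for Pllp and 3.28 for Pmp22, each with an exact permutation p of 0.0286 (two-sided), the smallest that 35 assignments of 7 libraries can give. Adjusted over the 13 ratios computed, these p were 0.124, so none passed 0.05 in the exact permutation test. Plp2 differed from Mbp by 3.16 (exact permutation p = 0.0571, adjusted 0.186). The ratio of Mobp to Mbp differed by -0.75 (exact permutation p = 0.143). That of Mal to Mbp differed by -0.10 (exact permutation p = 0.8), but by -0.57 in the low and 0.98 in the high astrocyte set, and by -0.71 (without siRNLTR12-int replicate 1) to 0.38 (without siRNLTR12-int replicate 3) when 1 library was left out. Relative to Sox10, the log2 ratios differed by -2.28 for Mbp, -3.04 for Mobp, -0.83 for Cnp and -2.39 for Mal, with exact permutation p of 0.143 to 0.257. The corresponding values were 0.32 for Pllp, 1.001 for Pmp22 and 0.88 for Plp2, with exact permutation p of 0.4 to 0.486. The size of these Sox10 ratios rested on single libraries. With 1 library left out, Mbp gave -3.19 to -1.74, Mobp -4.20 to -2.39, Cnp -1.37 to -0.55 and Mal -3.91 to -1.36, each lowest without siRNLTR12-int replicate 1. Pllp gave 0.08 (without control replicate 4) to 0.55 (without control replicate 1). Pmp22 gave 0.23 and Plp2 -0.13 without siRNLTR12-int replicate 1, and both gave 1.69 without control replicate 1. In the low and high astrocyte sets, the ratio to Sox10 differed by -2.72 and -0.53 for Mal and by -0.74 and -0.39 for Cnp. The 7 members together took 0.307%, 1.14%, 0.325% and 0.406% of the reads in the controls and 0.170%, 0.133% and 0.125% with siRNLTR12-int. Mbp made up 65.8%, 78.7%, 64.2% and 67.4% of these member reads in the controls, but 46.0%, 35.3% and 31.2% in the siRNLTR12-int libraries.

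**Figure D3:**
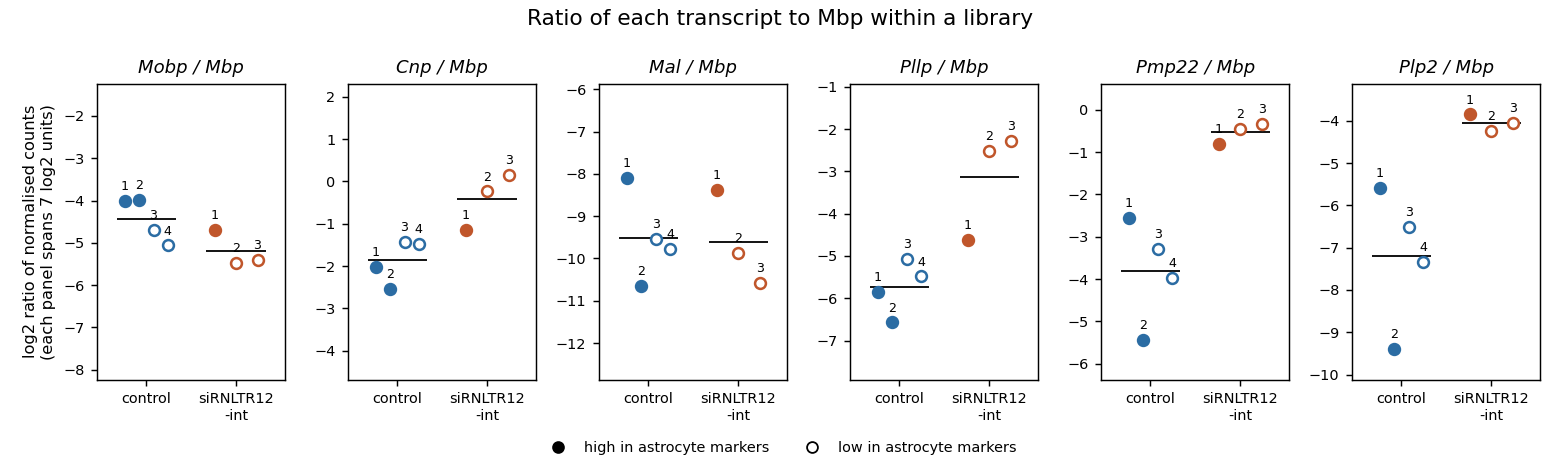
Log2 ratio of each of the other 6 members to Mbp within each library, 1 point per library with group means, in panels that each span 7 log2 units; filled points are high and open points low in astrocyte markers. The ratios of Cnp, Pllp, Pmp22 and Plp2 with siRNLTR12-int lie above every control, and those of Mobp and Mal overlap.

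Promoters of Mobp, Cnp, Mal and Pmp22 are shown because the first 3 were lower beside Mbp and the last differed in the other direction. All 7 members matched the RefSeq promoter table (assembly GRCr8, whereas the deposited values rest on Rnor_6.0), and the 250 bases before the start were searched on both strands. The motifs were ACAAAG and ACAATG, letters bound by Sox10 and related SoxE factors, and CTGGCAC and CTGGTAC, letters bound by Myrf, the transcription factor that drives myelin gene expression. In the sequences, capitals mark motif letters on either strand.
Mobp: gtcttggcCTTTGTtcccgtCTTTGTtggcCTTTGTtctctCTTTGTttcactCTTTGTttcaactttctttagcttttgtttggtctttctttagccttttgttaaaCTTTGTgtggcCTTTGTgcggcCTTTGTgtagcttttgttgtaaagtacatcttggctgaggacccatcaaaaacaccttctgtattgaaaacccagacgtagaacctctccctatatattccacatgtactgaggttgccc
Cnp: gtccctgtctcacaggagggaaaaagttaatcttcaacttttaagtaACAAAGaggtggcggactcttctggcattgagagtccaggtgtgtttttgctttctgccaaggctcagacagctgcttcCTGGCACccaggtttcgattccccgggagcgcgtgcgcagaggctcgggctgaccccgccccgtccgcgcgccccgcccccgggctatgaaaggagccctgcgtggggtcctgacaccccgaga
Mal: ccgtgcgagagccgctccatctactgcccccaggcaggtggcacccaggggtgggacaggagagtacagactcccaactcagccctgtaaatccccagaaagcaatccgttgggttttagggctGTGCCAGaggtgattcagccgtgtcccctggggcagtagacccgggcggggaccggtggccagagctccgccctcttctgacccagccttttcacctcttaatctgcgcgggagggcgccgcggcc
Pmp22: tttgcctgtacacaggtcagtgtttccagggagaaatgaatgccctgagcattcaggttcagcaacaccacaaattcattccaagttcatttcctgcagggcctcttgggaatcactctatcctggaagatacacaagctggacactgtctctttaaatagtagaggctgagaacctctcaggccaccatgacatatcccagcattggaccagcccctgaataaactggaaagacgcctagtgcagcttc
They lie at chr8:128746982-128747231 (plus strand) for Mobp, chr10:86011254-86011503 (plus) for Cnp, chr3:135341424-135341673 (minus) for Mal and chr10:48294682-48294931 (plus) for Pmp22, and each is written 5′ to 3′ on the gene's strand. The Mobp window held 8 matches of ACAAAG, a number reached by 2 of the 33469 promoters of the table (0.00598%), while 25.3% of promoters held at least 1 SoxE match. The Mobp matches, written CTTTGT on this strand, lie mostly a few bases apart in a repetitive stretch. Their number is therefore not a count of independent sites. Cnp held 1 SoxE and 1 Myrf match, Mal 1 Myrf match, and Pmp22 neither. The window of 1 of the 2 Mbp starts held 3 SoxE matches, a number reached or passed by 0.633% of promoters, and the other held none. Plp2 held 1 Myrf match, a motif present in 5.48% of promoters, and Pllp held neither. A match describes letters only, and none says only that these letters are not in this window.

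Genes related to the members by sequence or role were read from lists. Of 28 other myelin genes tested, 24 had a negative log2 difference, with a list median of -1.01 beside 0.01 for all genes. At an unadjusted limma p under 0.05, 14 were lower and 1, the chaperone gene Cryab, was higher, and 0 passed the adjusted test. Over all tested genes, 2.98% were lower and 3.33% higher at that p. All 3 siRNLTR12-int libraries lay below all controls for 12 of them, an order found in 3.59% of tested genes. The 3 with the smallest p were Apod, a lipid carrier (-1.42, SE 0.23), Ermn, a cytoskeletal protein of the myelin sheath (-2.64, SE 0.60), and Cldn11, the tight junction claudin of central myelin (-2.19, SE 0.52), each with a limma adjusted p of 0.647. All 3 fell in the authors' deposited table, with DESeq2 adjusted p of 0.000374, 0.00514 and 0.00394.

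The families of Mal and of Pmp22 were then examined. The MARVEL family, which includes Mal, Pllp and Plp2, had 22 tested genes with a median of -0.08, 13 negative and 9 positive. At an unadjusted limma p under 0.05, 5 were lower, Mal among them, and 0 higher, beside 2.98% and 3.33% of all tested genes. The other members with the smallest p were Cmtm7 (-1.08, SE 0.31, limma adjusted p = 0.662), Syngr2 (-0.82, SE 0.30, adjusted p = 0.712) and Cmtm4 (-0.37, SE 0.15, adjusted p = 0.782). The PMP22 and EMP family, tetraspan membrane proteins, had 4 members, all with positive differences. Pmp22 is followed by Emp1 (0.89, SE 0.67), Emp2 (0.75, SE 0.38) and Emp3 (0.71, SE 0.63), with limma adjusted p of 0.849 to 0.953. The groups overlapped for all 4, as Emp3 shows with 748.3, 180.0, 211.2 and 165.0 normalised counts in the controls and 890.7, 317.7 and 276.4 with siRNLTR12-int.

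Among 14 regulators of myelin genes, 8 had a negative and 6 a positive difference, with a median of -0.17. At an unadjusted limma p under 0.05, 4 were lower, beside 2.98% of all tested genes. These were Nkx6-2, St18, Myrf and Tcf7l2, the last named after its values were seen. Nkx6-2, a homeobox factor of oligodendrocytes, had a log2 difference of -1.91 (SE 0.46) and St18, a zinc finger factor, -1.93 (SE 0.47), each with a limma adjusted p of 0.647. Myrf had 11417, 45149, 16995 and 26328 normalised counts in the controls and 7356, 7661 and 7996 with siRNLTR12-int. The Myrf groups did not overlap (-1.52, SE 0.43, limma adjusted p = 0.661), and Nkx6-2, St18 and Myrf fell in the comparison of the authors' deposited table, with DESeq2 adjusted p of 0.014, 0.00876 and 0.0267. Sox10 overlapped between the groups (-0.35, SE 0.65, limma adjusted p = 0.985), and its difference was 0.25 when siRNLTR12-int replicate 1 was left out and -0.84 when control replicate 1 was. In the 4 libraries with low astrocyte markers its groups did not overlap, with -0.32 (limma adjusted p = 0.142) and -0.34 with DESeq2 (adjusted p = 0.0225).

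Markers of stages and other cells were read in the same way. Of 11 newly formed oligodendrocyte markers, 10 had a negative difference, with a median of -0.64. At an unadjusted limma p under 0.05, 4 were lower, Enpp6 (-2.10), Rras2 (-1.47), Kif19 (-1.30) and Tcf7l2 (-0.77), and 1 was higher, Samd4a (0.48). The same 5 were those whose groups did not overlap, and they were named after their values were seen. Of all tested genes, 2.98% were lower and 3.33% higher at that p. Full separation was found in 3.59% (lower) and 4.09% (higher). The markers with the highest counts, Bcas1 (-0.45) and Gpr17 (-0.64), overlapped between the groups. The median of 8 progenitor markers was 0.16, with 6 positive, and those with the highest counts were Ptprz1 (0.23) and Pdgfra (0.60). Cspg5, named after its values were seen, differed by 0.65 and was the 1 progenitor marker higher at an unadjusted limma p under 0.05. For Ptprz1 and Cspg5 all siRNLTR12-int libraries lay above all controls, an order found in 4.09% of tested genes. The lineage marker Olig1 differed by 0.31. Limma adjusted p was 0.661 to 0.975 for all these markers. The summed progenitor count was 208760 to 284063 in the controls and 236770 to 351063 with siRNLTR12-int, which overlap over all 7 libraries. In the 4 libraries with low astrocyte markers it was 284063 and 268498 in controls 3 and 4 and 351063 and 334130 in siRNLTR12-int replicates 2 and 3. Schwann cell markers, given because Pmp22 is best known there, summed to 1194 to 1991 in the controls and 1385 to 1798 with siRNLTR12-int, with a median of -0.03 over 6 tested genes, with the highest counts for Cdh19 (-0.10) and Dhh (0.51). At an unadjusted limma p under 0.05, 2 of these genes were lower and 2, Dhh among them, were higher, beside 2.98% and 3.33% of all tested genes. The sums of microglia markers were 1830 to 16349 and 2631 to 18568, those of vascular and fibroblast markers 2681 to 6294 and 2760 to 5487, and those of neuron markers 2680 to 5229 and 2733 to 4935, in controls and siRNLTR12-int libraries respectively. The endothelial marker Cldn5 and the oligodendrocyte marker Neu4 were at 0 in all 7 libraries. The median log2 difference was -0.23 for 10 astrocyte markers (6 negative, 4 positive), -0.56 for 12 microglia markers (9 negative, 3 positive), 0.53 for 7 vascular and fibroblast markers (3 negative, 4 positive) and 0.07 for 6 neuron markers (3 negative, 3 positive), with 0 of them at an unadjusted limma p under 0.05. Acta2 (1.43), named after its values were seen, was the 1 gene of these 4 lists with all siRNLTR12-int libraries above all controls. The markers with the highest counts in these lists were Gfap (-0.89) and Slc1a3 (0.08) for astrocytes, Cd68 (0.68) and Csf1r (-0.57) for microglia, Pdgfrb (-0.54) and Tagln (-0.31) for vascular cells and fibroblasts, and Tubb3 (-0.23) and Syt1 (-0.43) for neurons, as log2 differences with limma adjusted p of 0.935 to 0.997. All these sums overlapped between the groups, and their part in the member differences was not tested beyond the values within the sets given above.

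**Figure D4:**
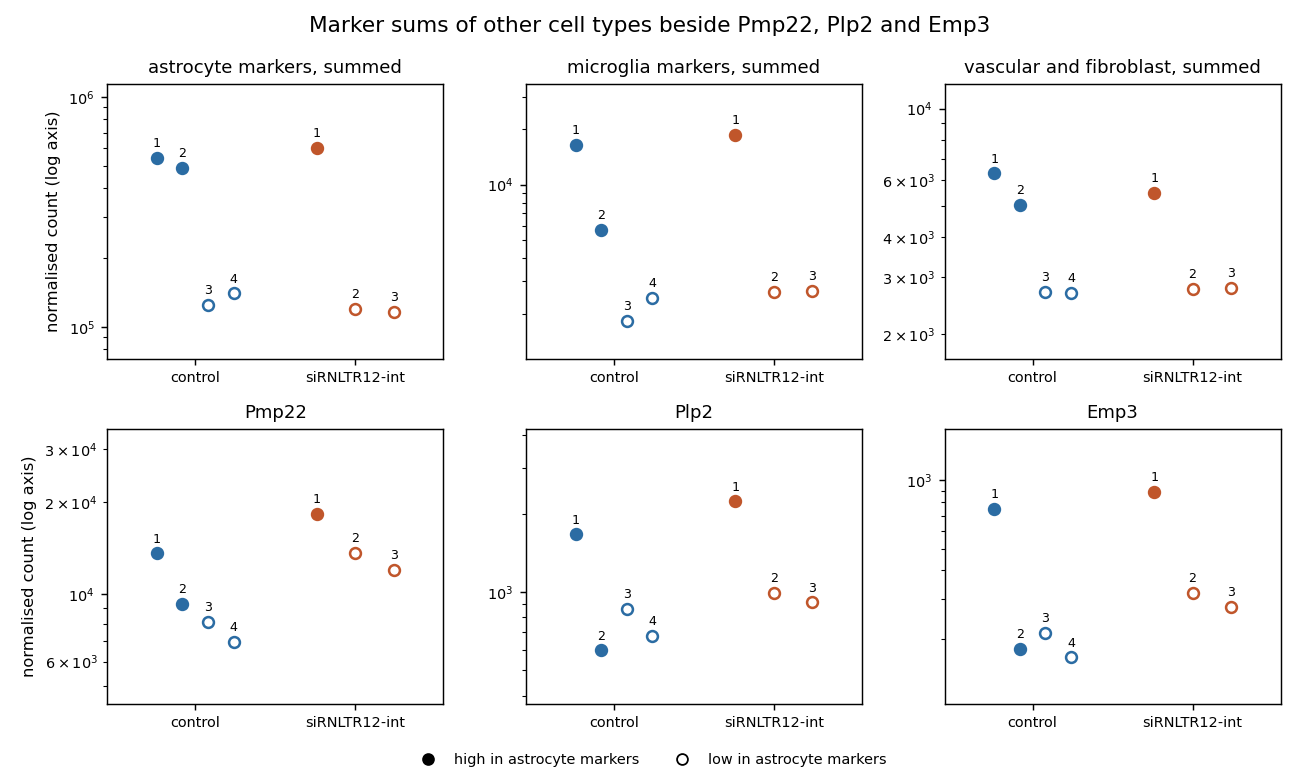
Summed normalised count (log axis) of astrocyte, microglia, and vascular and fibroblast markers in each library (top), and normalised count (log axis) of Pmp22, Plp2 and Emp3 (bottom). Points are single libraries with their replicate number, filled where astrocyte markers are high (sums of 491118 to 601078) and open where they are low (116575 to 139877). Control replicate 1 and siRNLTR12-int replicate 1 are the highest of their groups in all 6 panels. Control replicate 2, also filled, is the lowest point for Plp2.

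The genes whose profile over the 7 libraries lay nearest to a member were found among 12080 genes with a mean of at least 100, by the root mean square difference of centred log2 values. Nearest to Mbp were Mag (0.106) and Adamts4 (0.147), followed by Gjc3 (0.221) and Tmem151a (0.247). Nipal4 (0.324) was among the genes nearest to Mobp, and Cnp lay nearest to Aatk (0.0848) and Dock6 (0.115). Mal, with few reads, had no profile nearer than Fgd2 (0.527) and Pmp2 (0.549). Pllp lay nearest to Bcl11b (0.107) and Slfn13 (0.154), Pmp22 to Rras (0.0518) and Zhx3 (0.0614), and Plp2 to Rab11fip1 (0.0791) and Rtp3 (0.0908). Measured against Mbp, Mobp ranked 35 of 12080 genes at 0.559, Cnp 117 at 0.874 and Mal 143 at 0.916. Pllp ranked 5242, Pmp22 11186 and Plp2 11460. The points share library and depth, and the distances are descriptions.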

How the data were processed

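RNA in 7 libraries was measured by ribosome-depleted, directional paired-end RNA-seq, per the labels' protocols. Salmon and DESeq2 are named, without roles or versions, in the submitters' processing notes, as is the build Rnor_6.0. The authors deposited normalised counts, a signal per gene and library, and a comparison table with the mean signal, log2 fold change, a test score and p-values before and after adjustment, per the file headers. In each library 100% of the deposited values were, to within 0.01, whole multiples of a smallest step, from which whole reads were recovered, 22523873 to 61803693 per library. No filter or strand setting is given in the sources used here, nor how multi-mapped reads were divided. RefSeq lists a pseudogene, Mobp-ps1, and places Plp2 over part of Prickle3 and Mbp, Mal and Pmp22 each over 1 long noncoding RNA, so these counts could include reads of the overlapping gene.

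The test was limma 3.58.1 (R 4.3.3; empirical Bayes with trend, two-sided) on log2(normalised count + 1), a scale that understates differences of low genes, over genes with a mean of at least 10, with Benjamini-Hochberg adjustment and a threshold of 0.05. It called 0 genes. On the recovered reads, edgeR 4.0.16 called 0 (at an unadjusted p under 0.05, 580 higher and 585 lower, and 606 and 543 with limma), and DESeq2 1.42.0 called 72 higher and 69 lower. Ratios of members were tested with two-sided exact permutation over 35 assignments, and the exact Poisson intervals used scipy 1.17.1. Other settings were a replicate block, array weights, rescaling by TMM or upper quartile, pseudocounts of 0.25 and 8, a minimum mean of 50 or none, astrocyte marker level as covariate or block, and each library left out. The scripts were tested on simulated data. Libraries all differed beyond sampling noise. The most alike, siRNLTR12-int replicates 2 and 3, gave a chi-square of 1.27 for the median gene, where sampling alone gives 0.455.

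The members and gene lists were chosen with earlier results of these data known. Named are all members, Sox10, the PMP22 and EMP family, the 3 genes with the smallest p of the other myelin, MARVEL and regulator lists, the 2 markers per cell type with the highest mean count, and the nearest profiles (5 for Mbp, 2 for each other member). Some of these genes are not reported here. Genes were ordered by counts not corrected for transcript length only to choose which markers to name.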

Additional observations from a re-analysis of the deposited data

Results flagged for a closer look

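Among the 4 control libraries, replicate 2 stood far from the others for Mbp, at 401821 normalised counts, and for Mobp, at 25262 normalised counts. On the scale of normalised counts, its gap to the next control was 0.906 of the range of the group for Mbp and 0.913 for Mobp. Both are above Dixon's 95% critical value for 4 samples. These were 2 of 20 groups examined. Chance flags about 1 in 20 where values are normally distributed and groups are independent. The 20 groups share the same 4 libraries, so they are not independent, and normality was not checked. The siRNLTR12-int groups of 3 libraries were not examined in this way, nor were the log2 counts of single members, the scale of the limma test.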

How the results depend on the processing

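Mbp, Mobp, Cnp, Mal and Pmp22 kept their direction under every setting run. With limma array weights, the log2 differences were -2.75 for Mbp, -3.46 for Mobp, -1.12 for Cnp and -3.41 for Mal, all called. That is 4 members lower, beside 383 of 18225 genes lower and 456 higher (839 in all). Pllp turned to 0.34 there. DESeq2 on recovered reads called 141 genes and 2 members lower, Mbp (-2.93) and Mobp (-3.77). In the 4 libraries low in astrocyte markers, limma called 1415 genes, 4 members lower and 2 higher, with -2.47 for Mbp, -3.03 for Mobp, -1.06 for Cnp, -3.04 for Mal, 0.40 for Pllp and 0.77 for Pmp22. DESeq2 there called 1732 genes, 822 lower and 910 higher of 16796 tested. Of the members it called 4 lower and 2 higher, with -2.49, -3.05, -1.09, -3.11, 0.39 and 0.75 in the same order. With the astrocyte sets as a block, DESeq2 called 691 genes, 4 members lower and 1 higher, with -2.65 for Mbp, -3.26 for Mobp, -1.29 for Cnp, -2.33 for Mal and 0.74 for Pmp22. Limma with that block, or with astrocyte marker level as covariate, called 0 genes. The cause of these changes was not tested. With a pseudocount of 8 the ratio of Mal to Mbp turned to 0.27, and in the high set the ratio of Pllp to Mbp was 1.59.

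Whether the replicate numbers pair the libraries is not settled by the correlations of same-numbered deviations (0.746, -0.191 and 0.632 for numbers 1, 2 and 3). Libraries of unlike number reached 0.566 (control replicate 3 with siRNLTR12-int replicate 2). Numbers 1 and 3 join libraries of the same astrocyte set, and number 2 does not. With the replicate block, limma called 0 genes and 0 members (median -1.13). DESeq2 with this block called 3 members lower, Mbp (-2.68), Mobp (-3.59) and Mal (-2.92). Over all genes it called 176, 98 lower and 78 higher of 17804 tested.

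With each library left out, limma gave -2.94 to -2.08 for Mbp, -3.95 to -2.69 for Mobp, -1.46 to -0.86 for Cnp, -3.66 to -2.01 for Mal, -0.30 to 0.40 for Pllp, 0.48 to 0.84 for Pmp22 and 0.13 to 0.84 for Plp2, with 0 to 2 genes and 0 members called. Pllp was 0.24 without control replicate 2 and 0.40 without siRNLTR12-int replicate 1. DESeq2 gave -3.31 to -2.02 for Mbp, -4.57 to -2.48 for Mobp, -1.55 to -0.91 for Cnp, -3.84 to -1.75 for Mal, -0.24 to 0.31 for Pllp, 0.43 to 0.85 for Pmp22 and -0.00059 to 0.95 for Plp2, with 9 to 552 genes, 0 to 3 members lower and 0 to 1 higher. Pllp was 0.31 without control replicate 2 and 0.28 without siRNLTR12-int replicate 1, and Plp2 -0.000593 without the latter. DESeq2 called Cnp (adjusted p = 0.000824) and Pmp22 (adjusted p = 0.0169) only without control replicate 1, where Mobp had no adjusted p, and Mal (adjusted p = 5.29e-07) only without siRNLTR12-int replicate 1. Mal, with 11 to 345 reads per library, is the member with the least depth.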
